A study of Mus musculus with 26 samples.

Results

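Transcripts of 9 genes that carry the type I interferon signal were followed in mouse C2C12 cells and in regenerating mouse muscle. The 9 genes were the ligand Ifnb1, the receptor subunits Ifnar1 and Ifnar2, the signal transducer Stat2, the interferon regulatory factors Irf1, Irf7 and Irf9, and the inhibitors Socs1 and Usp18. They were chosen by name, with their levels in these libraries already known, from 55487 genes listed in the C2C12 table and 53465 listed in the muscle table, and all 9 were found in both. C2C12 is a mouse myoblast line that fuses into myotubes when serum is withdrawn. The 8 libraries of the C2C12 table are pairs of control cells and Mettl3 knockdown cells (Cas9M3), sampled in growth medium (GM, day 0 in the labels) and after 3 days of differentiation (DM3). Mettl3 encodes the catalytic subunit of the complex that writes m6A on RNA. According to the study's methods, the knockdown used a lentivirus that expresses a guide to the Mettl3 promoter and, from the hUbC promoter, dCas9-KRAB, a transcriptional repressor, followed by puromycin selection into a stable line. The design text calls the same cells knockout derivatives and the control wildtype. What vector, if any, the control cells carried is not given in the sources used here, so effects of the virus, the selection and the lower Mettl3 cannot be told apart. The muscle table holds tibialis anterior of 6-week-old male C57BL/6J mice, according to the methods, on days 0, 1, 3, 5 and 10 of an injury by cardiotoxin (CTX), a toxin of cobra venom that kills muscle fibres. Each day has 2 of the 10 libraries. The labels speak of day 0 where the methods give saline to control muscle, so whether day 0 muscle was untouched or given saline is not settled. The methods speak in general of independent biological samples, in a larger number than the 2 libraries per group here, and the labels do not say whether these came from separate cultures or animals, so p-values measure only the spread between these libraries, which may be technical.

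Type I interferons are secreted proteins that warn cells of viruses and of misplaced nucleic acids. They bind a receptor made of IFNAR1 and IFNAR2, whose Janus kinases JAK1 and TYK2 phosphorylate STAT proteins. Among these, STAT2 joins IRF9 in the factor ISGF3, which binds the interferon-stimulated response element (ISRE) of its target genes. The response to interferon gamma acts through another element, the gamma-activated site (GAS). IRF7 is itself a product of this response and drives more interferon genes, while USP18 binds IFNAR2 and SOCS1 binds the kinases to stop the signal.

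Because the members belong to 1 pathway that acts on its own genes, the promoters of the members were searched for both elements. Promoter windows from 250 bases before to 50 bases after the start were taken from RefSeq (GRCm38.p6), which matched 8 of 9 members, all but Usp18. The core of the ISRE, GAAA and GAAA with any 2 bases between them on either strand, was present in the windows of 3.99% of 27025 genes, and the GAS, TTCNNNGAA, which reads the same on both strands, in 9.55%. An ISRE core was present in 2 of 8 members and a GAS in 3 of 8. The matches are shown with 10 bases on each side, 5′ to 3′ on the strand of the gene, with the matched letters in capitals.
Stat2, ISRE core on the opposite strand, chr10:128270266-128270295, plus strand: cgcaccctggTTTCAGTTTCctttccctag
Socs1, ISRE core, chr16:10785600-10785629, minus strand: agacttgccgGAAAGAGAAAccgaaagcgg
Ifnar1, GAS, chr16:91485200-91485228, plus strand: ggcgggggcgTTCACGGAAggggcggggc
Ifnar2, GAS, chr16:91372559-91372587, plus strand: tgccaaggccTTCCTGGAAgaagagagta
Irf1, GAS, chr11:53769914-53769942, plus strand: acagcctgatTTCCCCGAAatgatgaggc
The capitals of Stat2 start at position -222 from the RefSeq start, those of Socs1 at -83, Ifnar1 at -5, Ifnar2 at -214 and Irf1 at -90. In Socs1 a second ISRE core starts at -77 and shares bases with the first. Among the other genes of the pathway, an ISRE core was present in 8 of 16 ISGF3 targets and in 11 of 15 type I ligands. The other lists had fewer, with 5 of 13 IRF1 and interferon gamma targets and 3 of 13 sensors that lead to Ifnb1. It was present in 1 of 5 other interferon regulatory factors, 1 of 8 Janus kinases and STATs, and 1 of 8 negative regulators. Other interferon ligands and receptors had 0 of 6. A match of letters is a description and not a measured binding site.

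Values are FPKM, which scales the fragments of a gene by gene length and library size, so levels of different genes are compared per length. Steps in the low values gave 14226544 to 29558730 reads on genes per C2C12 library and 14174086 to 18823275 per muscle library. Mettl3 was 4.70 and 5.65 FPKM in the control GM libraries and 0.331 and 0.118 in the knockdown GM libraries, and 4.68 and 5.15 against 0.148 and 0.0805 at DM3. In log2(FPKM + 0.1) it fell by 4.10 (SE 0.40) in GM and by 4.57 (SE 0.40) at DM3, with adjusted p = 0.188 and 0.0187 in limma, so the labels hold although no gene was called in GM. A part of the Mettl3 exons, 933 bases, overlaps exons of Tox4 on the opposite strand. On GRCm38, Stat2 lies at chr10:128270559-128292849, Irf1 at chr11:53770014-53778374, Irf9 at chr14:55603571-55610030, Socs1 at chr16:10782240-10785536, Ifnar2 at chr16:91372783-91405589, Ifnar1 at chr16:91485238-91507441 and Usp18 at chr6:121245906-121270917, and values cover the exons of the whole gene. A call here is an adjusted p of at most 0.05 in limma over all genes that reach 0.5 FPKM in 2 or more libraries, 13824 in the C2C12 table and 16753 in the muscle table.

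**Figure D1:**
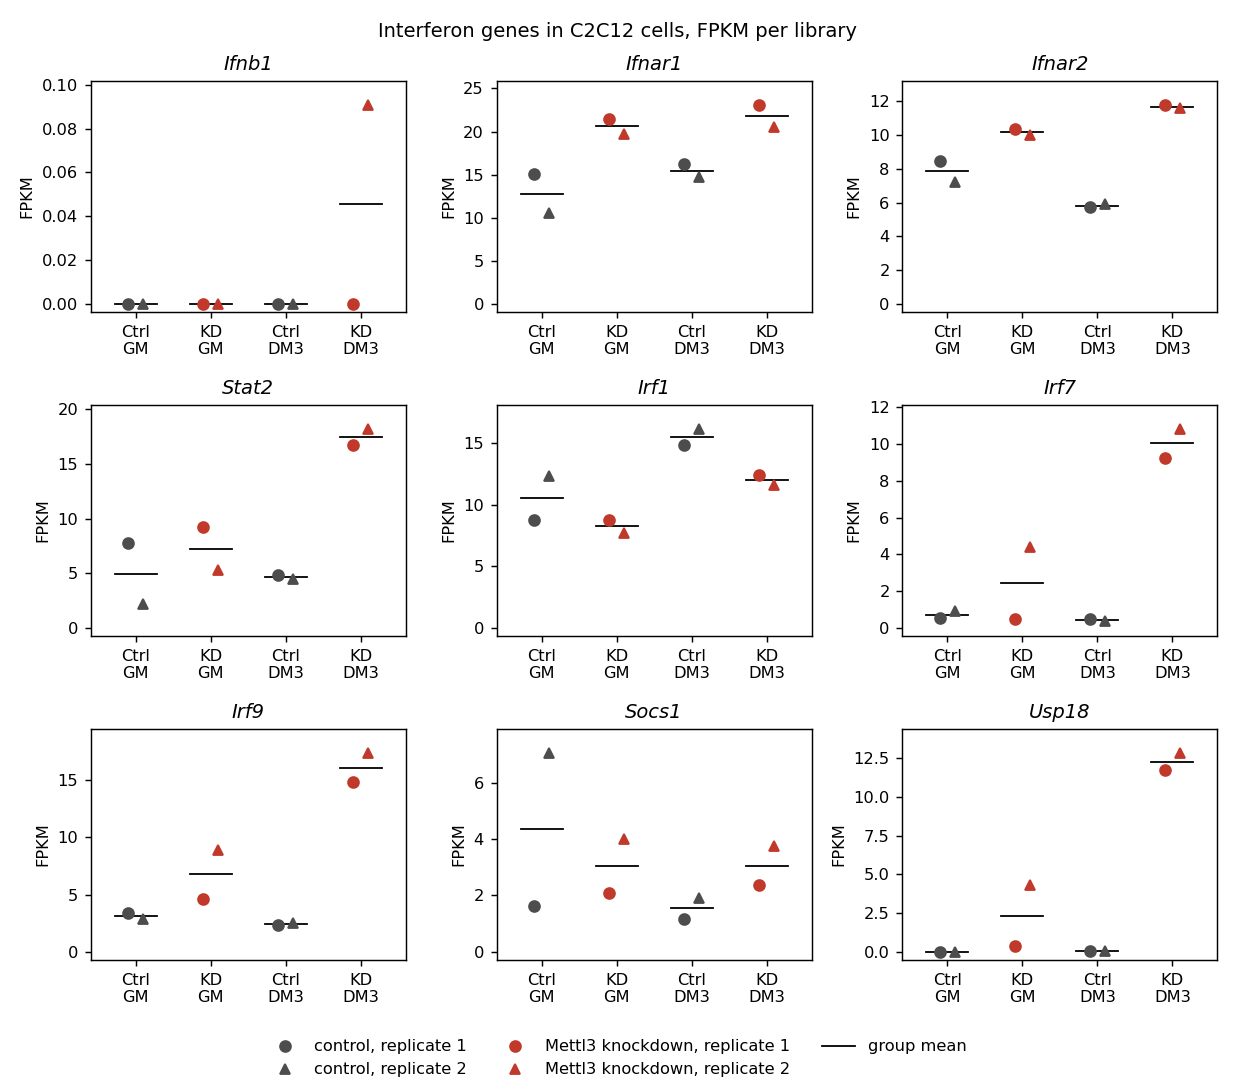
Each panel plots 1 gene in the C2C12 table, with FPKM on a linear axis against control (Ctrl) and Mettl3 knockdown (KD) libraries in GM and at DM3; circles are replicate 1, triangles replicate 2 and bars group means. Stat2, Irf7, Irf9 and Usp18 are highest in both knockdown DM3 libraries, Irf1 is highest in the control DM3 libraries, and Ifnb1 is above 0 in 1 of 8 libraries.

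The ligand Ifnb1 (chr4:88522025-88522774, minus strand, 1 exon) was at 0 in 7 of 8 C2C12 libraries. Its value of 0.0908 FPKM in knockdown DM3 replicate 2 is that of 1 read. With 0 reads a level of up to 0.126 to 0.414 FPKM, depending on the library, would go unseen (3 reads, counting error only). Of 16 further type I ligands, Ifne reached 0.108 FPKM and the other 15 were at 0 in the C2C12 libraries. Ifng, the type II ligand, did not pass 0.0526 FPKM. The highest value of the interferon ligands listed, in knockdown or control cells, was thus the 0.108 FPKM of Ifne. Ifne was above 0 in libraries of both.

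Both receptor genes, which lie on chromosome 16, were higher in every knockdown library than in every control library of the same stage. Ifnar1 was 15.0 and 10.5 FPKM in control GM and 21.4 and 19.8 in knockdown GM, and 16.2 and 14.8 in control DM3 against 23.1 and 20.5 in knockdown DM3. The log2 fold changes were 0.70 (SE 0.21) in GM and 0.49 (SE 0.21) at DM3. The effects at the 2 stages differed by 0.21 in log2. Ifnar2 was 8.48 and 7.25 FPKM in control GM and 10.3 and 9.99 in knockdown GM, a log2 fold change of 0.37 (SE 0.16). At DM3 it was 5.72 and 5.90 in control and 11.8 and 11.6 in knockdown, a log2 fold change of 1.00 (SE 0.16). From GM to DM3 both control libraries of Ifnar2 were lower and both knockdown libraries higher. Neither change was called by limma (adjusted p = 0.244 and 0.743). The exons of Ifnar2 share 315 bases with Gm21970 on the same strand, which was at 0 FPKM in every library of both tables.

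Both ISGF3 subunits listed here were free of overlap at DM3, where Irf9 was called and Stat2 was not, and the difference of their knockdown effect between the stages was called for neither. Stat2 was 4.87 and 4.46 FPKM in control DM3 and 16.7 and 18.2 in knockdown DM3, a log2 fold change of 1.88 (SE 0.57). In GM its libraries overlapped, with 7.72 and 2.17 in control and 9.25 and 5.28 in knockdown. Irf9, the DNA-binding subunit of ISGF3, was 2.38 and 2.50 FPKM in control DM3 and 14.8 and 17.4 in knockdown DM3. Its log2 fold change was 2.67 (SE 0.32) at DM3 and 1.02 (SE 0.32) in GM, where the libraries held 3.36 and 2.90 in control and 4.62 and 8.92 in knockdown. Irf9 therefore did not overlap between knockdown and control at either stage. Its exons share 123 bases with Rnf31 on the same strand, which lay between 2.49 and 4.87 FPKM in all 8 libraries.

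Irf7 had low values in control cells and lay above those of the same stage in 3 of 4 knockdown libraries. Irf7 was 0.525 and 0.905 FPKM in control GM and 0.461 and 4.43 in knockdown GM, so that knockdown replicate 1 lay below both controls and replicate 2 above them. At DM3 it was 0.493 and 0.398 in control and 9.27 and 10.8 in knockdown, a log2 fold change of 4.22 (SE 0.90) and a ratio of means of 22.6. The exons of Irf7 in the annotation, merged, cover the gene from end to end (chr7:141262706-141266481), so reads from its introns would count, and 45 bases overlap Phrf1 on the opposite strand. Phrf1 lay between 4.22 and 8.44 FPKM in the 8 libraries. Irf1, a factor induced by interferon gamma through the GAS, was lower in both knockdown libraries than in both control libraries at each stage. It was 14.9 and 16.2 FPKM in control DM3 and 12.4 and 11.6 in knockdown DM3, a log2 fold change of -0.37 (SE 0.21). In GM it was 8.81 and 12.3 in control and 8.80 and 7.75 in knockdown, a log2 fold change of -0.33 (SE 0.21), with control replicate 1 and knockdown replicate 1 only 0.01 FPKM apart.

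Of the inhibitors, Usp18, the protease that trims ISG15 from proteins and blocks IFNAR2, had the widest gap of all members. Usp18 was 0.0523 and 0.0861 FPKM in control DM3 and 11.7 and 12.8 in knockdown DM3, and 0.0113 and 0 in control GM against 0.375 and 4.31 in knockdown GM. In reads, replicate 1 at DM3 held about 910 against 4, a ratio of 224 (95% counting interval 87.1 to 823), and replicate 2 about 526 against 4, a ratio of 149 (57.9 to 549). In GM, replicate 1 held about 33 reads against 1, a ratio of 33.2 (5.57 to 1352), and replicate 2 about 221 against 0, at least 38.7-fold higher when the control is set to 3 reads. These intervals cover counting error only, and the fitted log2 fold changes of 6.20 (SE 0.96) at DM3 and 3.78 (SE 0.96) in GM depend on the pseudocount. The exons of Usp18 share 124 bases with the antisense gene Gm44148, which was 0 and 0 FPKM in control DM3 and 0.681 and 0.862 in knockdown DM3, and without strand their reads cannot be told apart. Socs1, a Janus kinase inhibitor, was 1.18 and 1.90 FPKM in control DM3 and 2.36 and 3.75 in knockdown DM3, a log2 fold change of 0.94 (SE 0.70). In GM its libraries overlapped widely, with 1.63 and 7.05 in control and 2.09 and 4.01 in knockdown.

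**Figure D2:**
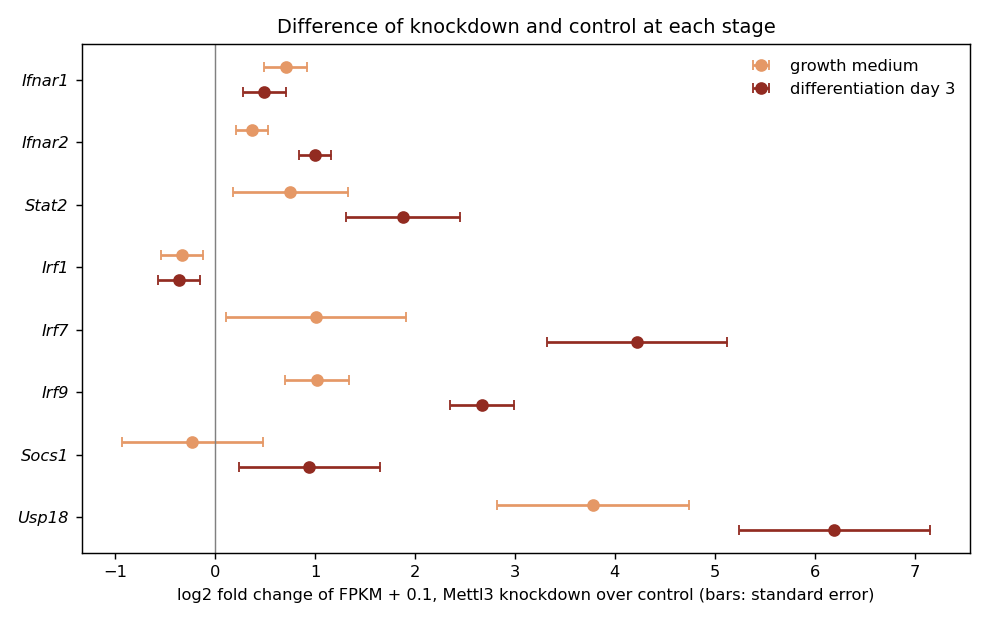
The log2 fold change of FPKM + 0.1 between Mettl3 knockdown and control is plotted on the x axis for the 8 members tested, in GM (light) and at DM3 (dark); bars are standard errors from limma with 2 libraries per group. Usp18, Irf7, Irf9 and Stat2 lie farther right at DM3 than in GM, Irf1 lies left of 0 at both stages, and Ifnar1 lies right of 0 at both.

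Of the 9 members, 8 passed the filter on low values and Ifnb1 did not. At DM3, 3 of 8 were called, Ifnar2, Irf9 and Usp18, all higher, where 1.98% of all genes tested were called, 1.29% higher and 0.687% lower. In GM 0 of 8 were called by limma, where 0% of genes were, 4 were higher and 1 lower without overlap (15.6% and 13.8% of all genes), and 3 of 8 had an unadjusted p under 0.05, as had 1244 of 13824 genes. All 8 were free of overlap at DM3, 7 higher and 1 lower, where 29.3% of all genes were higher without overlap and 34.2% lower. The members had been chosen for these contrasts, so these counts describe them and test nothing. The count at DM3 was 0 without any 1 of the 4 DM3 libraries, 4 without either control GM library, 4 with the replicate number as a block (Irf7 was added) and 5 in a fit of the DM3 libraries alone. The knockdown effect at DM3 minus that in GM was 3.21 (SE 1.27) for Irf7, 2.42 (SE 1.35) for Usp18, 1.65 (SE 0.45) for Irf9, 1.17 (SE 0.99) for Socs1, 1.13 (SE 0.81) for Stat2, 0.63 (SE 0.23) for Ifnar2, -0.03 (SE 0.29) for Irf1 and -0.21 (SE 0.30) for Ifnar1 in log2. This difference between the stages was called by limma for 0 of 8 members, where 0% of all genes were, and 3 of 8 had an unadjusted p under 0.05, as had 1198 of 13824 genes.

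The order of the levels was read from the same DM3 values and is a description, not further support. In control DM3, Irf1 (15.5 FPKM on average) and Ifnar1 (15.5) stood first and overlapped, followed by Ifnar2 (5.81), Stat2 (4.67), Irf9 (2.44), Socs1 (1.54), Irf7 (0.445) and Usp18 (0.0692), each separate from the next. In knockdown DM3, Ifnar1 (21.8) was followed by Stat2 (17.4) and Irf9 (16.1), which overlapped. Usp18 (12.3), Irf1 (12.01) and Ifnar2 (11.7) came next, where Usp18 overlapped Irf1 and Irf1 overlapped Ifnar2, then Irf7 (10.1) and Socs1 (3.05). Usp18, which was under 0.1 FPKM in all 4 control libraries, thus lay near the receptor subunit Ifnar2 in this group, while Irf7 stayed below it in both libraries.

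The GM libraries of a group were unlike each other in several members and in muscle markers. Knockdown GM replicate 2 exceeded replicate 1 for Irf7, Usp18, Irf9 and Socs1 and lay below it for Stat2, Ifnar1, Ifnar2 and Irf1. The summed FPKM of 6 differentiated muscle markers (Myog, Ckm, Acta1, Mylpf, Myh3 and Tnnt3) was 113 in replicate 1 and 5.18 in replicate 2 of knockdown GM. In control GM it was 161 and 24.8, with Usp18 at 0.0113 and 0 FPKM and Irf7 at 0.525 and 0.905. At DM3 the sum was 767 and 745 in control and 22.6 and 16.7 in knockdown, so the knockdown DM3 libraries that held the high members also held little of these markers. The part of this difference in the members' levels was not tested. Leukocyte RNA was near 0: Cd52 was at 0 in every C2C12 library, Ptprc reached 0.00392 FPKM, and the 4 leukocyte markers summed to 0.0786 to 0.437 FPKM. The plasmacytoid dendritic cell marker Siglech was at 0, and T and NK cell markers summed to at most 0.00986 FPKM. Of 8 macrophage markers, Cd14 and Cd68 alone passed 0.5 FPKM, and Adgre1, Itgam, C1qa and C1qb were at 0 throughout. Cd14 was 5.98 to 16.31 FPKM and Cd68 0.669 to 6.38. The 8 macrophage markers summed to 6.81 and 7.83 FPKM in control DM3 and to 15.07 and 17.71 in knockdown DM3. In GM the sums were 22.3 and 16.85 in control and 17.44 and 14.43 in knockdown. These sums were not tested.

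DM3 was also compared with GM within control cells and within knockdown cells. The members were chosen with the levels in these libraries known, so the counts describe them and test nothing. In knockdown cells the muscle marker sums of the 2 stages overlapped, as given above. In control cells 0 of 8 members were called by limma between DM3 and GM. Of all genes, 1.14% were called (0.767% higher and 0.376% lower). An unadjusted p under 0.05 was held by 2 of 8 members and by 2520 of 13824 genes. The 2 members were Irf1, with a log2 fold change of 0.57 (SE 0.21, adjusted p = 0.238), and Ifnar2, with -0.43 (SE 0.16, adjusted p = 0.244). Free of overlap were 2 members that were higher and 3 that were lower at DM3, beside 24.8% and 22.4% of all genes. Without control GM replicate 1, which then leaves 1 library in that group, Socs1 was called lower. In knockdown cells 0 of 8 were called, where 0.0289% of genes were (0.0145% in each direction). An unadjusted p under 0.05 was held by 4 of 8 members and by 1748 of 13824 genes. The 4 members were Irf9 (1.30, SE 0.32, adjusted p = 0.16), Usp18 (3.09, SE 0.96, adjusted p = 0.258), Irf7 (2.67, SE 0.90, adjusted p = 0.298) and Irf1 (0.53, SE 0.21, adjusted p = 0.372), in log2 by limma. In each of these 4, and in Ifnar2 and Stat2, both knockdown DM3 libraries exceeded both knockdown GM libraries, which makes 6 of 8 members. Of all genes, 23.9% were higher and 24.1% lower without overlap. In control and in knockdown cells alike, Irf1 and Usp18 were the members higher in both DM3 libraries than in both GM libraries. Usp18 stayed under 0.1 FPKM in control cells.

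The rest of the pathway was read from lists of 104 further genes, of which 67 were tested in the C2C12 table. At DM3, 10 of 67 were called by limma, all higher in knockdown, where 1.98% of all genes were called and 1.29% called higher, and the median log2 fold change of all genes was -0.05. ISGF3 target genes had 5 called of 18 tested and a median log2 fold change of 3.46, and all 18 were higher in both knockdown libraries than in both controls, as were 29.3% of all genes. The called genes of largest fold change were Ifit1, which binds viral RNA caps, Oas1a, a sensor of double-stranded RNA, and Mx2, an antiviral GTPase. Ifit1 was 0.645 and 1.36 FPKM in control DM3 and 112 and 98.4 in knockdown DM3 (log2 fold change 6.66, SE 1.09, adjusted p = 0.043 in limma). Oas1a was 0.0193 and 0 against 6.28 and 6.25 (adjusted p = 0.0401 in limma). Mx2 was 0 and 0.0166 against 4.65 and 4.37 (adjusted p = 0.0314 in limma). The other called ISGF3 targets, named after their values were seen, were Bst2, which tethers virions to the cell, at 106.6 FPKM on average against 5.93 (adjusted p = 0.0493 in limma), and Rtp4 at 43.6 against 2.07 (adjusted p = 0.0187).

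IRF1 and interferon gamma target genes had 3 called of 10 tested and a median log2 fold change of 1.55. Irf1 itself was lower without overlap, as were 34.2% of all genes, and was not called (adjusted p = 0.457 in limma). The called genes were the guanylate-binding proteins Gbp3 (3.54, SE 0.47), Gbp7 (2.94, SE 0.38) and Gbp2 (1.71, SE 0.26), with adjusted p of 0.0285, 0.0269 and 0.0367 in limma. Sensors that lead to Ifnb1 had 2 called of 15 tested, the cytoplasmic RNA sensors Dhx58, at 0.268 and 0.422 FPKM in control and 6.75 and 7.78 in knockdown, and Ifih1, at 0.170 and 0.0515 against 2.71 and 2.18. Their adjusted p-values were 0.0227 and 0.0357 in limma. Negative regulators other than Socs1 and Usp18 had 0 called of 12, with a median of -0.20, and 7 of them were lower without overlap, as were 34.2% of all genes. Isg15, the ubiquitin-like protein that USP18 removes, was 5.55 and 6.32 FPKM in control DM3 and 64.2 and 92.0 in knockdown DM3 (adjusted p = 0.153 in limma). The kinases Jak1 and Tyk2 and the factor Irf3 had log2 fold changes of 0.34 (SE 0.25), -0.11 (SE 0.28) and 0.19 (SE 0.26), and none of the 3 was called.

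In GM, 0 of 67 pathway genes were called by limma, where 0% of all genes were. An unadjusted p under 0.05 was held by 12 of 67 and by 1244 of 13824 genes. The difference of the knockdown effect between the stages was called for 0 of 67, where 0% of all genes were. Here 15 of 67 had an unadjusted p under 0.05, as had 1198 of 13824 genes. Of 18 ISGF3 targets in GM, 12 were higher without overlap, where 15.6% of all genes were. Isg15 was 1.48 and 10.6 FPKM in control GM and 4.37 and 27.7 in knockdown GM, so it overlapped. The count of 10 at DM3 fell to 0 without any 1 of the 4 DM3 libraries and rose to 21 without either control GM library and to 36 in a fit of the DM3 libraries alone. These pathway lists were written with earlier results of the same libraries known and are not independent of them.

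**Figure D3:**
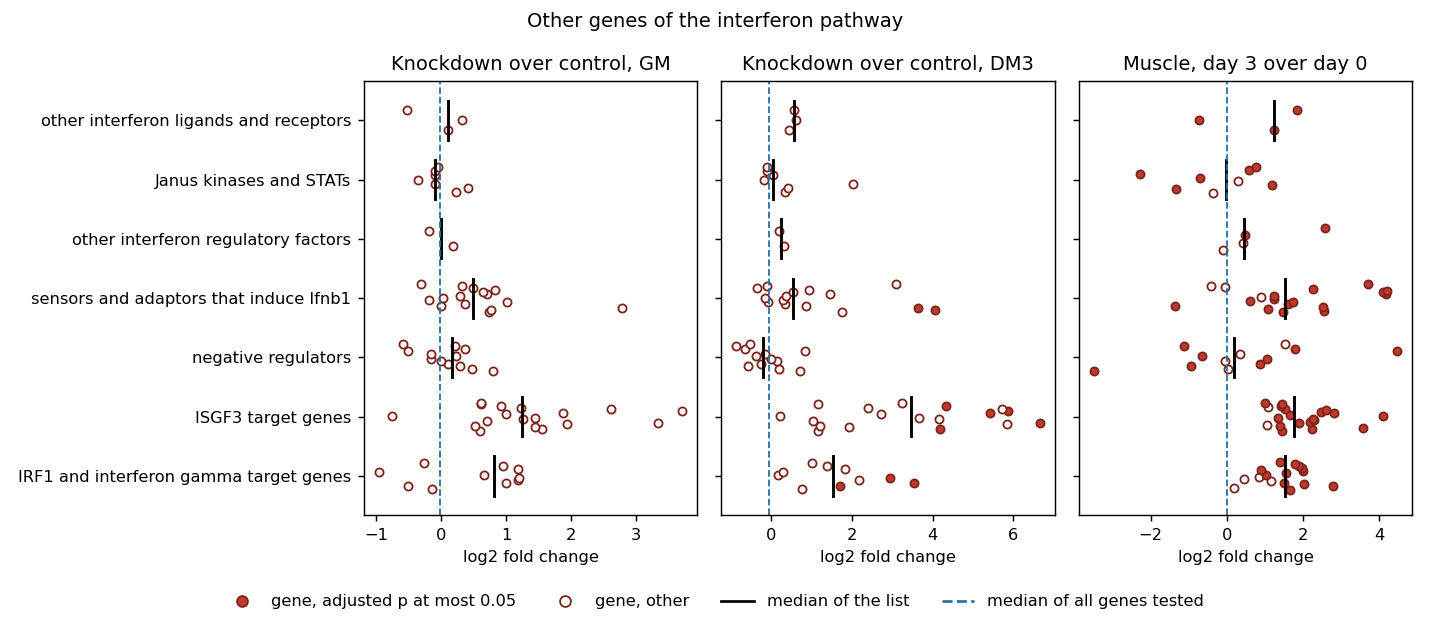
Each point is the log2 fold change of 1 pathway gene, by list on the y axis, in GM, at DM3 and in muscle on day 3 over day 0; filled points have an adjusted p of at most 0.05 in limma, black bars are list medians and dashed lines the median of all genes tested. At DM3 the ISGF3 targets lie farthest right, with a median of 3.46 and all 18 above 0, and in GM no point is filled.

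In muscle the mean of every member tested was higher on days 3 and 5 than on days 0, 1 and 10. Ifnb1 was at 0 in 9 of 10 muscle libraries, and the 0.0659 FPKM of day 3 replicate 2 is that of 1 read. A level of up to 0.198 to 0.327 FPKM would go unseen with 0 reads. Ifna2 reached 0.0738 FPKM, Ifnk 0.0614 and Ifng 0.117, and 14 of 16 further type I ligands were at 0 in every muscle library.

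**Figure D4:**
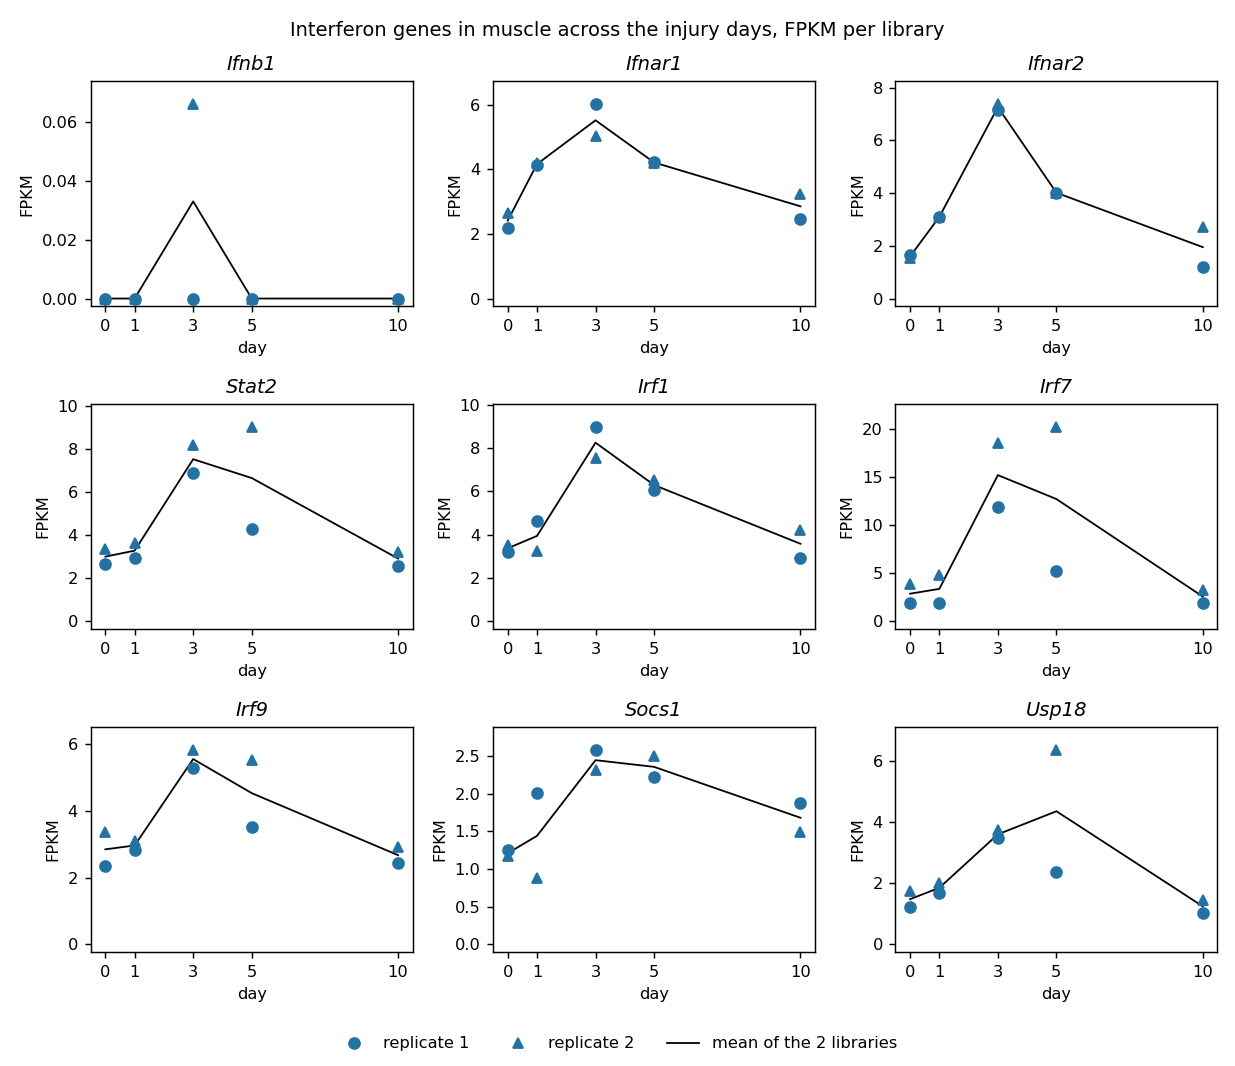
Each panel plots 1 gene in muscle, with FPKM on a linear axis against the day after cardiotoxin, with day 0 as the reference; circles are replicate 1, triangles replicate 2 and lines join the means of 2 libraries. The means are highest on day 3 for Ifnar1, Ifnar2, Stat2, Irf1, Irf7, Irf9 and Socs1 and on day 5 for Usp18, and day 5 replicate 2 stands above replicate 1 for Irf7, Stat2, Usp18 and Irf9.

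The receptor genes lay above their day 0 range on days 1, 3 and 5. Ifnar1 was 2.17 and 2.65 FPKM on day 0, 4.13 and 4.18 on day 1, 6.01 and 5.02 on day 3, 4.22 and 4.20 on day 5, with 2.47 and 3.23 on day 10. Ifnar2 was 1.66 and 1.53 FPKM on day 0, 3.10 and 3.09 on day 1, 7.15 and 7.37 on day 3, 4.02 and 4.01 on day 5, with 1.20 and 2.70 on day 10. They were the only members, 2 of 8, free of overlap with day 0 on day 1, where 25.5% of all genes were higher and 26.9% lower without overlap. As 2 of 8 is near the share of all genes, no order of response is read from it. Their log2 fold changes on day 1 were 0.77 (SE 0.18) and 0.91 (SE 0.31). In limma Ifnar1 was called (adjusted p = 0.0494) and Ifnar2 was not (adjusted p = 0.112). On day 3 the log2 fold changes were 1.16 (SE 0.18) and 2.12 (SE 0.31), and Ifnar2 passed Ifnar1 in level.

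Stat2, Irf9 and Irf7 overlapped day 0 on day 1 and rose on day 3. Stat2 was 2.65 and 3.36 FPKM on day 0, 2.92 and 3.65 on day 1, 6.89 and 8.17 on day 3, 4.30 and 9.01 on day 5, with 2.59 and 3.24 on day 10. Irf9 was 2.34 and 3.36 FPKM on day 0, 2.83 and 3.11 on day 1, 5.30 and 5.83 on day 3, 3.53 and 5.55 on day 5, with 2.44 and 2.91 on day 10. Irf7 was 1.91 and 3.87 FPKM on day 0, 1.96 and 4.82 on day 1, 11.9 and 18.6 on day 3, 5.27 and 20.2 on day 5, with 1.88 and 3.29 on day 10. Irf7 had the largest log2 fold change of the members on day 3, 2.41 (SE 0.70), beside 1.30 (SE 0.33) for Stat2 and 0.96 (SE 0.25) for Irf9, and while it overlapped Irf1, Stat2 and Irf9 in level on day 0, it stood above all other members on day 3. Unlike in the knockdown cells, Irf1 moved the same way as they did. Irf1 was 3.21 and 3.54 FPKM on day 0, 4.65 and 3.24 on day 1, 8.96 and 7.53 on day 3, 6.08 and 6.50 on day 5, with 2.94 and 4.23 on day 10, with 1.26 (SE 0.23) on day 3 in log2.

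Of the inhibitors, Usp18 was 1.21 and 1.74 FPKM on day 0, 1.68 and 2.02 on day 1, 3.47 and 3.72 on day 3, 2.35 and 6.34 on day 5, with 1.02 and 1.46 on day 10. Its antisense neighbour Gm44148, which shares exon bases with it, went from 0.508 and 0.948 FPKM on day 0 to 3.85 and 4.85 on day 3. Socs1 was 1.25 and 1.17 FPKM on day 0, 2.00 and 0.873 on day 1, 2.57 and 2.31 on day 3, 2.21 and 2.49 on day 5, with 1.87 and 1.48 on day 10. The log2 fold changes on day 3 were 1.25 (SE 0.42) for Usp18 and 0.96 (SE 0.33) for Socs1. Usp18 was thus between 1.02 and 6.34 FPKM in every muscle library, with the lowest value on day 10 and the highest on day 5.

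Replicate 2 of day 5 stood above replicate 1 by a factor of 3.84 for Irf7, 2.70 for Usp18, 2.10 for Stat2 and 1.57 for Irf9, while both receptor genes differed by a factor of 0.996 and 0.997. In number, 8 of 8 members were called on day 3, where 48.8% of all genes were called and 24.5% called higher, and 3 of 8 (Ifnar1, Ifnar2 and Irf1) on day 5, where 25.5% were called and 12.9% called higher. All 8 were above both day 0 libraries on day 3 and on day 5, as were 38.9% and 34.6% of all genes. On day 10 this held for Socs1 alone, with 19.2% of all genes higher and 20.4% lower without overlap. On day 1 the count was 1 of 8 (Ifnar1), where 3.53% of genes were called higher, and on day 10 it was 0 of 8 in limma, where 0.00597% of genes were, and at an unadjusted p under 0.05 it was 0 of 8 and 1697 of 16753 genes. As the members were chosen with this course known, nothing is read from the counts. The day 3 count was 3 without day 3 replicate 2 or day 0 replicate 1 and 4 without day 3 replicate 1. The day 5 count was 0 without day 5 replicate 2 or day 0 replicate 1 and 1 without day 0 replicate 2, and the day 1 count was 0 without any 1 library of days 0, 1, 3 or 5 and 2 without either day 10 library.

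The muscle libraries also differ in Xist, the RNA of the inactive X chromosome of female cells, although the methods name male mice. Xist was 5.78 to 10.0 FPKM in both day 0 libraries, both day 10 libraries and day 3 replicate 2, and at most 0.152 in the other 5, where the Y-linked gene Ddx3y was 6.10 to 11.4. Day 0 against day 1 or day 5 therefore cannot be told apart from this split within those days. Day 3 has 1 library of each kind. Its Xist-expressing library was above both day 0 libraries for 8 of 8 members tested, by a factor of 6.42 for Irf7, 4.61 for Ifnar2, 2.71 for Stat2, 2.52 for Usp18, 2.23 for Irf1, 2.08 for Ifnar1, 2.04 for Irf9 and 1.91 for Socs1. With a term for Xist-expressing libraries, 4 of 8 members were called on day 3 (Ifnar1, Ifnar2, Irf1 and Stat2) and 0 on days 1 and 5. Only day 3 holds both kinds of library, so this term rests on its 2 libraries. It cannot part the split from the effect of day 1 or day 5, and nothing is read from the loss of calls there.

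Macrophage, leukocyte, and T and NK cell marker sums were highest on day 3, as were the means of most members. The immune marker lists differed from each other in their course, and their sums are given as a description. Macrophage sums exceeded both day 0 libraries at day 1. On that day 2 of 8 members did so, near the 25.5% of all genes, so no order is read from it. The 8 macrophage markers summed to 21.4 and 39.0 FPKM on day 0, 119 and 124 on day 1, 559 and 530 on day 3, 187 and 236 on day 5, with 36.3 and 99.3 on day 10. The 4 leukocyte markers summed to 3.71 and 7.10 FPKM on day 0 and to 90.2 and 98.5 on day 3. Leukocyte sums at day 1, 37.2 and 29.7 FPKM, overlapped those of day 5, 28.6 and 35.8. Neutrophil markers instead peaked at day 1, with sums of 19.2 and 10.1 FPKM. Their day 3 sums were 7.17 and 8.18, compared with 1.58 and 5.19 for day 0. B cell markers stayed between 0.0942 and 0.416 FPKM in every muscle library. T and NK cell markers summed to 0.211 and 0.758 FPKM on day 0 and 5.76 and 5.58 on day 3, and plasmacytoid dendritic cell markers stayed at 0.105 to 0.642 FPKM. The 6 differentiated muscle markers summed to 44310 and 42850 FPKM on day 0 and 14740 and 13570 on day 3, and the 4 fibroblast markers to 37.8 and 91.4 on day 0 and 398 and 433 on day 3. The part of these cells in the members' levels was not tested, and in whole muscle more cells of a type and more RNA per cell cannot be told apart.

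**Figure D5:**
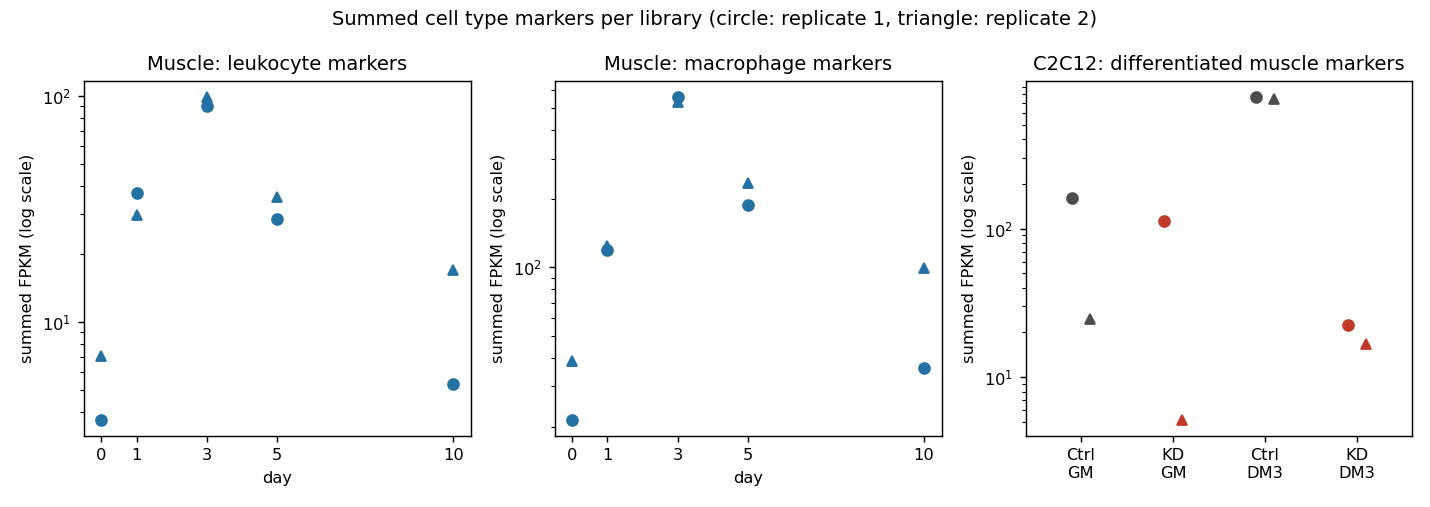
Summed FPKM of leukocyte and macrophage markers is plotted against the day in muscle, and of differentiated muscle markers against the C2C12 groups, all on log axes; circles are replicate 1 and triangles replicate 2. The macrophage sum peaks on day 3 at 559 and 530, and the muscle marker sum of the knockdown DM3 libraries, 22.6 and 16.7, lies below the 767 and 745 of the control.

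On day 3, 64 of 81 pathway genes tested in muscle were called by limma, 55 higher and 9 lower, where 24.5% and 24.3% of all genes were. ISGF3 targets had 18 of 20 called higher and a median log2 fold change of 1.76, and IRF1 and interferon gamma targets 12 of 16 and 1.54, beside 0.01 for all genes. The largest rises of ISGF3 targets were those of Mx1, an antiviral GTPase, at 0.0881 and 0.144 FPKM on day 0 and 3.75 and 3.39 on day 3 (adjusted p = 0.00109 in limma), Cxcl10, a T cell chemokine, at 3.55 on average against 0.220 (adjusted p = 0.00565), and Oas1a at 9.32 against 1.32 (adjusted p = 0.0206). Of the interferon gamma targets, Ciita, the switch of MHC class II genes, Cxcl9 and Nlrc5, the switch of MHC class I genes, rose by 2.79 (SE 0.33), 2.02 (SE 0.44) and 2.00 (SE 0.29) in log2, with adjusted p of 0.000621, 0.00747 and 0.0013 in limma.

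Sensors that lead to Ifnb1 had 14 of 18 called higher on day 3 and 1 lower, led by the endosomal receptors Tlr9 (4.19, SE 0.48), Tlr7 (4.18, SE 0.50) and Tlr8 (4.10, SE 0.50), which bind nucleic acids. Irf8, a factor of myeloid cells, was 0.831 and 1.09 FPKM on day 0 and 5.83 and 6.47 on day 3 (adjusted p = 0.000263 in limma). Tyk2 and Isg15 were called higher too, with log2 fold changes of 0.78 (SE 0.13) and 2.26 (SE 0.65). Not all signalling genes rose: Stat5b fell by 2.28 (SE 0.16) and Jak2 by 1.34 (SE 0.20) in log2, Ifngr2 by 0.73 (SE 0.19), and Ifngr1 rose by 1.25 (SE 0.25). The negative regulators were called in both directions, 4 higher and 4 lower of 12, with Ptpn6, a phosphatase of blood cells, 4.47 (SE 0.60) higher and Cish, an inhibitor of STAT5 signalling, 3.49 (SE 0.85) lower in log2. Jak1 (-0.35, SE 0.18) and Irf3 (0.42, SE 0.16) were not called.

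On day 5, 38 of 81 pathway genes were called higher and 7 lower by limma, where 12.9% and 12.5% of all genes were. On day 1, 4 were called higher and 3 lower, where 3.53% and 2.47% of all genes were. On day 1 the called genes included Irf5 (0.71, SE 0.14), Myd88 (1.18, SE 0.27) and Ptpn6 (2.87, SE 0.60) among those higher and Stat5b (-0.76, SE 0.16), Mavs (-0.76, SE 0.15) and Socs2 (-1.84, SE 0.33) among those lower, in log2. On day 10 the count was 0 of 81, where 0.00597% of all genes were called. An unadjusted p under 0.05 was held by 6 of 81 and by 1697 of 16753 genes. On day 5, Mx1 (3.36, SE 0.56), Cxcl10 (3.34, SE 0.73), Cxcl9 (2.63, SE 0.44) and Zbp1 (2.87, SE 0.54), a nucleic acid sensor, were among the largest in log2. The day 3 count of 64 fell to 38 without day 3 replicate 2 and to 39 without day 0 replicate 1. The day 5 count of 45 fell to 0 without day 5 replicate 2 or day 0 replicate 1, to 24 without day 5 replicate 1, to 29 without either day 3 library, and to 0 with a term for Xist. The day 1 count of 7 was 0 or 1 in 7 of 10 fits that left out 1 library, those of day 0, day 3 and day 5 and day 1 replicate 1.

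The members were also compared with all genes tested for the likeness of their pattern, as Pearson's r of log2 values over the libraries of a table, given as a description. Over the 8 C2C12 libraries the nearest genes were Irgm2 for Irf9 (0.992), Nlrp4e for Irf7 (0.990), P3h2 for Usp18 (0.995), Ankrd29 for Stat2 (0.993), Glb1 for Ifnar2 (0.990), Amigo1 for Ifnar1 (0.983), Znhit6 for Irf1 (0.982) and Pigyl for Socs1 (0.998). Over the 10 muscle libraries they were Rnf213 for Irf7 (0.993), Irf7 for Stat2 (0.989), Dhx58 for Irf9 (0.984), Mx2 for Usp18 (0.974), Rac2 for Ifnar2 (0.993), Rbbp8 for Ifnar1 (0.996), Podnl1 for Irf1 (0.980) and Dnttip1 for Socs1 (0.949). Among the members themselves, Irf7, Irf9 and Usp18 followed each other in both tables, with r of 0.944 to 0.976 in C2C12 cells and 0.942 to 0.977 in muscle, while Irf1 had r of -0.167 with Irf7 in C2C12 cells and 0.808 in muscle. The points share groups and library scaling, and with 2 libraries per group these values follow mainly the group means.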

How the data were processed

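RNA-seq was measured in 8 C2C12 libraries and 10 muscle libraries, and 8 further samples of Mettl3 or GFP overexpression were not analysed here. The authors used HISAT2 (GRCm38) for alignment and featureCounts for counting, and the FPKM values they deposited come from the fpkm function of DESeq2. Tool versions and strand settings are not given in the sources used here. As the 2 tables were scaled apart from each other, tests were run only within a table. Groups and replicate numbers follow the labels.

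Reads were recovered with GENCODE M21 exon lengths (55141 of 55487 and 53274 of 53465 genes matched) from values under 30 reads, of which 98.7% to 98.9% per library in the C2C12 table and 96.7% to 97.5% in the muscle table were whole multiples within 0.05 reads. They were used only for depth, low members and counting intervals, not in a model. Genes that reach 0.5 FPKM in 2 or more libraries were fitted with limma 3.58.1 in R 4.3.3 (lmFit, eBayes with trend) on log2(FPKM + 0.1), with all groups of a table in 1 fit and Benjamini-Hochberg adjustment. Fold changes on this scale understate those of low genes. The smallest two-sided p of an exact permutation test of 2 libraries against 2 is 0.333. Python 3.11.15 and matplotlib 3.10.9 were used for values and plots. The fit was tested on simulated data.

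The members and all lists were chosen with earlier results of these data known. Named genes are the 9 members, Mettl3, Jak1, Tyk2, Irf3, Isg15, the nearest gene of each member, and per list and comparison up to 3 called genes of largest fold change whose higher group averages 1 FPKM or more and whose libraries do not overlap. Bst2, Rtp4, the overlapping neighbours and Xist with Ddx3y fall outside this rule, and not all genes that it selects are described.

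Same-numbered libraries of the C2C12 table deviated together from their group means (6 correlations, 0.278 to 0.680, all above 0.1), so the numbers pair them by this measure, and no source gives a reason. Of the 10 correlations in muscle, 2 passed 0.1 (-0.019 to 0.211), so the numbers do not pair those libraries. Alternatives were pseudocounts of 1 and 0.01, no filter, a filter of 1 FPKM, scaling by median ratios, normalization by quantiles, a fit of the compared groups alone, the replicate block, a term for Xist, and each library left out.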

Additional observations from a re-analysis of the deposited data

How the results depend on the processing

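Of 143 recomputed values, over 17 counts and fold changes and all settings but the left-out libraries, 124 stayed the same, which for a count means within 1.5 times and for the fold change of Mettl3 the same direction and side of the threshold. Among these, 8 members on day 3 became 6 without a filter or with quantile normalization, 64 pathway genes on day 3 became 44 with the term for Xist, and 10 at DM3 became 7 with a pseudocount of 0.01. The 19 others were as follows, and the cause was not tested. In a fit of the compared groups alone, the members called at DM3 went from 3 to 5 and the pathway genes from 10 to 36, and those of day 5 from 45 to 9 and of day 1 from 7 to 0. The 1 member called on day 1 was lost (0) with a pseudocount of 0.01, without a filter, with quantile normalization, in a fit of the compared groups alone, with the replicate block and with the term for Xist, and the 7 pathway genes of day 1 became 0 without a filter, 3 with quantile normalization and 0 with the term for Xist. On day 5, 3 members became 5 with a filter of 1 FPKM, 7 with the replicate block and 0 with the term for Xist, and 45 pathway genes became 29 without a filter and 0 with that term. On day 3, 8 members became 4 with the term for Xist. With the replicate block, which pairs the C2C12 libraries, 4 members and 14 pathway genes were called at DM3, and of the calls printed for that table it changed that of Irf7. In muscle it gave 8, 64, 56 and 0 pathway genes on days 1, 3, 5 and 10.

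With 1 library left out, which leaves a lone library assumed to vary like the other groups, members called ranged from 0 to 4 at DM3, 0 to 2 on day 1, 3 to 7 on day 3, 0 to 4 on day 5 and 0 to 1 for control differentiation, and pathway genes from 0 to 21 at DM3, 0 to 9 on day 1, 38 to 66 on day 3 and 0 to 45 on day 5. The fold change of Mettl3 at DM3 ranged from -4.80 to -4.33 and was not called without any 1 DM3 library. Of 1120 recomputed fold changes of members, 0 of those called changed sign and 68 moved by more than 1 SE. Member values that were not called did change sign in some settings. In GM the fits without 1 library gave, among others, -0.50 to 2.51 for Irf7, -0.142 to 1.645 for Stat2 and -1.25 to 0.79 for Socs1. Among named pathway genes 10 values that were not called changed sign. With the term for Xist they became 0.12 for Irf3 and -0.029 for Jak1 on day 1 and -0.008 for Jak1 on day 5. With 1 library left out, the GM values ranged from -0.52 to 0.15 for Irf3, -0.057 to 0.52 for Jak1 and -0.46 to 0.36 for Tyk2. On day 1 they ranged from -0.021 to 1.17 for Isg15, and on day 10 from -0.37 to 0.92 for Isg15 and -0.038 to 0.18 for Jak1. With 2 libraries per group and 1 read worth up to 0.138 FPKM on Ifnb1, differences in low members are limited by depth.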
